A study of Mus musculus with 6 samples.

Results

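The genes described here are 10 regulators of epithelial and mesenchymal identity, found by symbol among the 20856 genes with values in an RNA-seq table of mouse liver tumor lines. Of these, 7 encode transcription factors of the epithelial-mesenchymal transition (EMT), namely Zeb1, Zeb2, Snai1, Snai2, Twist1, Twist2 and Prrx1. The other 3 encode epithelial regulators, the splicing factors Esrp1 and Esrp2 and the transcription factor Grhl2. RNA was sequenced from 6 lines, each grown from a liver tumor of a C57BL/6 mouse after hydrodynamic tail vein injection of a Myc transposon and a Cas9 plasmid. In 3 lines the guide of that plasmid was directed at Trp53 (sgp53 in the labels, sgTrp53 here), the tumor suppressor p53. In the other 3 it was directed at Kmt2c (sgMll3 in the labels, sgKmt2c here), the histone methyltransferase MLL3. The lines were not isogenic, all carried the Myc transposon, and no group had both target genes intact. They had been passaged in culture on collagen until no fibroblasts could be seen, and the labels of sgKmt2c replicates 2 and 3 share a number (2A and 2T1). The methods describe the lines of a genotype as coming from different mice.

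In EMT, epithelial cells lose their junctions and polarity and take up a migratory, mesenchymal form. SNAIL and ZEB proteins bind E-box sequences in the promoters of junction genes such as Cdh1, which encodes E-cadherin, and repress them with corepressor complexes, whereas TWIST and PRRX1 proteins are best known as drivers of mesenchymal programs. ESRP1 and ESRP2 direct the splicing of epithelial isoforms, GRHL2 activates junction genes, and ZEB1 and GRHL2 repress each other in many epithelial cells.

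The 6 libraries held 3680068 to 6878625 reads on listed genes, and all were run on the same 2 lanes. Levels are given in RPKM, reads scaled to transcript length and to the total of reads on genes. As 1 transcript length was used per gene, comparisons between genes and sums over genes are approximate. Trp53 was at 17.2 to 19.4 RPKM in the sgTrp53 lines and at 92.2 to 124 RPKM in the sgKmt2c lines (adjusted p = 0.014, limma). Kmt2c was at 18.4 to 24.2 RPKM in the sgTrp53 lines and at 9.51 to 25 RPKM in the sgKmt2c lines (adjusted p = 0.819, limma), so its RNA level did not separate the genotypes. Among all genes tested, sgKmt2c replicate 1 was the lowest line in 35.9% and the highest in 23.6%, more than any other line in both cases. The summed level of 10 hepatocyte markers was 5685 RPKM in sgKmt2c replicate 1, 339 RPKM in sgKmt2c replicate 3 and 4.21 to 78.4 RPKM in the other lines. Albumin (Alb) itself was at most 4.36 RPKM in any line. Most of the sum in sgKmt2c replicate 1 came from Apob (4385 RPKM, 23099 reads) and Hnf4a (1186 RPKM, 2409 reads). The keratin gene Krt8 was at 1662 RPKM in that line from 14138 reads. The lengths used for Apob and Hnf4a were thus shorter than that for Krt8, which raises their RPKM and the sum. Ahsg and Tat, of the same list, had no read in that line and were at most 2.93 and 1.38 RPKM elsewhere. Results that rest on that line are given with and without it.

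E-box motifs were searched in promoter windows of RefSeq (GRCm38.p6, 250 bases before to 50 after each start), because the repressors among the 7 factors bind the letters CACCTG, which read CAGGTG on the other strand. Both spellings were searched as the same site, with no overlap between them. Of the 10 genes, 5 had a window (Zeb2, Snai1, Twist1, Twist2 and Prrx1), and 1 of these, Snai1, held a site. Of 28 epithelial genes, 18 had a window and 16 of the 18 (88.9%) held at least 1 site. The list was drawn from genes these factors are known to act on, so its share and number of sites are in part built in. Among 20 mesenchymal genes 10 had a window and 1 (10%) held a site, in the Sparc promoter. The share was 20% among the 8528 genes tested that had a window and 22.6% among all 27025 genes of the promoter table. At least 3 sites were found in 4 of the 18 epithelial genes (22.2%, namely Crb3, Lsr, Ap1m2 and Spint2), against 0.27% of the genes tested. Mean GC content of the windows was 62.8% for the epithelial genes, 58% for the mesenchymal genes and 61.5% for the genes tested. A match to these letters is a description of the sequence and not a measured binding site.

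The 250 bases before the start are printed for 2 of the factors and for 3 epithelial genes, with the sites in capitals. Snai1 is shown as the only factor with a site in its window and Twist1 as the only factor whose levels separated the genotypes. Epcam, which encodes an epithelial adhesion molecule, Crb3, a polarity gene, and Lsr, a gene of tricellular junctions, are shown as epithelial genes with several sites, and Crb3 and Lsr were chosen after their counts of sites were seen.
Snai1 (chr2:167537945-167538194, plus strand): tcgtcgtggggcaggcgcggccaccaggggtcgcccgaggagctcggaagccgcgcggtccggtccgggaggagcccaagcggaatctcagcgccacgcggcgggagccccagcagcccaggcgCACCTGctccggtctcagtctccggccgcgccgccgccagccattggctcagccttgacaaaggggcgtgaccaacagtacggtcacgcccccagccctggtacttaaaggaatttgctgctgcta
Twist1 (chr12:33957421-33957670, plus strand): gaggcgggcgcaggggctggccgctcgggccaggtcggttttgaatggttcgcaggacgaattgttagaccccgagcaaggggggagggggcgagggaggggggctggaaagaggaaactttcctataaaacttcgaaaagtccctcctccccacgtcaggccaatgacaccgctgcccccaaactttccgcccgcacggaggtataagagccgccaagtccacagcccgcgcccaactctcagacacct
Epcam (chr17:87635729-87635978, plus strand): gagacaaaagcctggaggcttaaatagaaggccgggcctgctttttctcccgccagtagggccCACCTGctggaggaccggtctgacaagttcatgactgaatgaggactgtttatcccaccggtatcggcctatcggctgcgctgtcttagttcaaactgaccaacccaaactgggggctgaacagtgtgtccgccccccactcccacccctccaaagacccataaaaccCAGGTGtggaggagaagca
Crb3 (chr17:57061951-57062200, plus strand): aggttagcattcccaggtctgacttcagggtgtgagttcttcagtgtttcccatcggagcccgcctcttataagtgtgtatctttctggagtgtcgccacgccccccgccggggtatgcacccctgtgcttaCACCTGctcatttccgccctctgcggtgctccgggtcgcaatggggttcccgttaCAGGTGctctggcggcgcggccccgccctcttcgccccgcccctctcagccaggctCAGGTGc
Lsr (chr7:30973470-30973719, minus strand): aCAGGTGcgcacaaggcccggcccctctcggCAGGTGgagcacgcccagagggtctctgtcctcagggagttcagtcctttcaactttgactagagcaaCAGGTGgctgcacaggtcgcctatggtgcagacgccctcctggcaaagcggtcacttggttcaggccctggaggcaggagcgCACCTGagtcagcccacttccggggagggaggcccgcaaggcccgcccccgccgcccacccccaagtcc
The printed stretch held 1 site in Snai1, 0 in Twist1, 2 in Epcam, 3 in Crb3 and 4 in Lsr. Crb3 has 2 starts in the table, of which the first is printed, and a further site lies after that start.

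For all EMT transcription factors but Twist1, the wider of the ranges within a genotype exceeded the log2 fold change between the genotypes. All 7 factors were lowest in sgKmt2c replicate 1, and 5 of the 7 (Zeb1, Zeb2, Snai1, Twist1 and Prrx1) were highest in sgTrp53 replicate 2. Twist2 was highest in sgTrp53 replicate 3 and Snai2 in sgKmt2c replicate 2. In sgKmt2c replicate 1 the summed level of the 7 factors was 7.35 RPKM, against 37.0 to 184 RPKM in the other lines, and 4 of the 7 had no read. In a bulk library, fewer cells that express a gene and less RNA per cell cannot be told apart. The median residual SD within genotypes, on the log2(RPKM + 1) scale, was 1.83 for the 7 factors and 0.368 for all 11617 genes tested, so a genotype difference of a given size was harder to detect among them than among other genes.

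**Figure D1:**
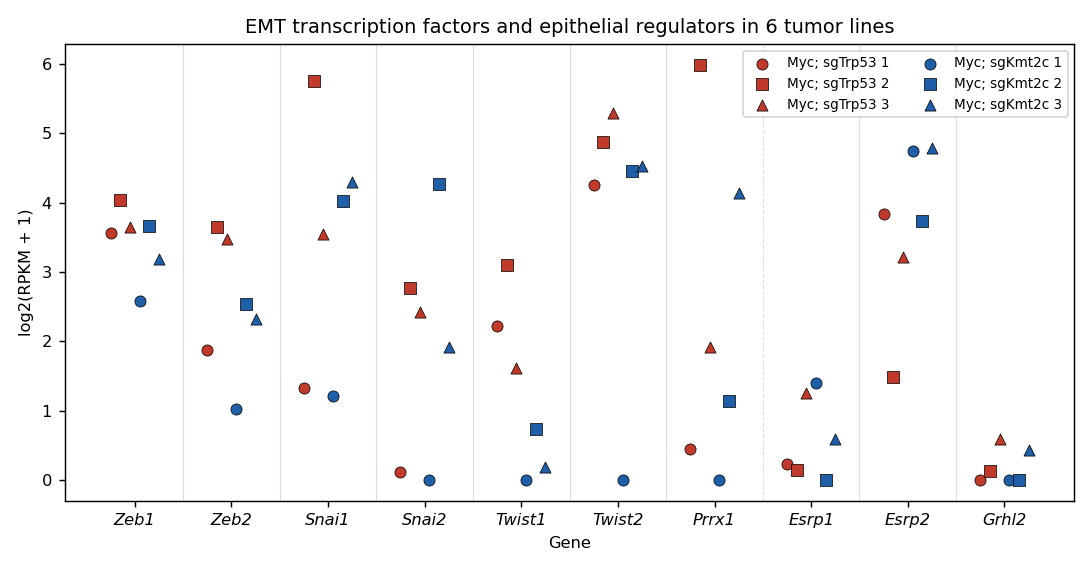
Level of each of the 10 genes in every line, as log2(RPKM + 1) on the y axis, with red symbols for the 3 sgTrp53 lines, blue symbols for the 3 sgKmt2c lines, and shapes for the replicate number. The blue circle (sgKmt2c replicate 1) is the lowest point for all 7 EMT factors from Zeb1 to Prrx1, and red and blue symbols stand apart for Twist1 alone.

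Across genotypes, 8 of the 10 genes reached 1 RPKM in at least 3 of the 6 libraries and were tested (Esrp1 and Grhl2 were not). None of the 8 was called at an adjusted p under 0.05 (limma on log2(RPKM + 1), adjusted over all 11617 genes tested), where 15 of all genes were called (0.129%, with 0.0516% higher and 0.0775% lower in the sgKmt2c lines). The 7 EMT factors had 1 positive and 6 negative log2 fold changes with a median of -1.03, against -0.09 for all genes tested, and over the lines left out in turn this median ranged from -1.60 to -0.31. By unadjusted p under 0.05, 2 of the 8 passed (Twist1 and Esrp2), against 8.58% of all genes tested (5.34% lower and 3.25% higher). The levels of the genotypes did not overlap in 1 of the 10 genes, Twist1, against 16.2% of all genes tested (10.4% lower and 5.72% higher). An exact permutation test (two-sided) of 3 lines against 3 gives p = 0.1 at best, a value reached by Twist1 alone. Twist1 entered the test only through the sgTrp53 lines, so its lack of overlap and its p-values are in part fixed by the filter on low values. All p-values set the difference between genotypes against the differences between these lines, and limma moderates that spread over all genes tested. They treat the lines as independent, although the labels of sgKmt2c replicates 2 and 3 share a number.

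Zeb1, like Zeb2 a repressor with zinc fingers and a homeodomain, was the steadiest of the factors. Zeb1 (ENSMUSG00000024238, chr18:5591860-5775467, GRCm38) was at 10.8, 15.5 and 11.6 RPKM in the sgTrp53 lines and at 5.01, 11.7 and 8.14 RPKM in the sgKmt2c lines. The sgKmt2c lines lay lower on average but overlapped the sgTrp53 lines through replicate 2. The mean was 12.6 ± 2.52 RPKM (SD, n = 3) in the sgTrp53 lines against 8.29 ± 3.36 RPKM (SD, n = 3), a log2 fold change of -0.60 (95% confidence interval -1.39 to 0.19, adjusted p = 0.646, limma). Without sgKmt2c replicate 1 the log2 fold change was -0.32. Its residual SD stood at the 58.3rd percentile of all genes tested, the lowest of the 7 factors. The lncRNA Gm10125 overlaps Zeb1.

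Zeb2 (ENSMUSG00000026872, chr2:44983634-45117395) was at 2.66, 11.5 and 10.1 RPKM in the sgTrp53 lines and at 1.03, 4.79 and 3.98 RPKM in the sgKmt2c lines. Replicate 1 was the low line in both genotypes, and sgTrp53 replicate 1 lay below 2 of the sgKmt2c lines. The log2 fold change was -1.04 (95% confidence interval -2.50 to 0.42, adjusted p = 0.665, limma). Left out in turn, the lines gave -1.60 to -0.57, the latter without sgKmt2c replicate 1. The lncRNA Zeb2os and the miRNA gene Mir5129 overlap Zeb2, and the use of strand in the counting was not given, so reads from them may be part of its level. Zeb1 and Zeb2 were the closest of all pairs of tested factors over the 6 lines, with a mean absolute difference of 0.49 between their centred log2(RPKM + 1) values. The measure also favors genes of small range.

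The SNAIL repressors Snai1 and Snai2 varied widely from line to line. Snai1 (ENSMUSG00000042821, chr2:167538195-167542814) was at 1.52, 52.8 and 10.7 RPKM in the sgTrp53 lines and at 1.31, 15.2 and 18.6 RPKM in the sgKmt2c lines. It was low in replicate 1 of both genotypes, where the values rest on 15 and 10 reads, and its highest line was 40.3-fold above its lowest. The log2 fold change was -0.37 (95% confidence interval -3.39 to 2.65, adjusted p = 0.934, limma), and it turned to 0.73 without sgTrp53 replicate 2 and to 0.61 without sgKmt2c replicate 1. No direction can be given for Snai1.

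Snai2 (ENSMUSG00000022676, chr16:14705852-14709395) was at 0.0807, 5.83 and 4.36 RPKM in the sgTrp53 lines and at 0, 18.3 and 2.76 RPKM in the sgKmt2c lines. The 0 stands for no read, which allows a level of up to 0.313 RPKM (3 reads), and the 0.0807 for 1 read, so Snai2 was at or near the limit of detection in replicate 1 of both genotypes. Its log2 fold change of 0.29 (95% confidence interval -2.53 to 3.11, adjusted p = 0.945, limma) was positive through sgKmt2c replicate 2, without which it was -0.81, while without sgKmt2c replicate 1 it was 1.32 and without sgTrp53 replicate 1 it was -0.54. Floors and read numbers cover counting error only.

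The basic helix-loop-helix factor Twist1 was the factor whose genotypes separated. Twist1 (ENSMUSG00000035799, chr12:33957671-33959817) was at 3.65, 7.56 and 2.07 RPKM in the sgTrp53 lines, from 36, 65 and 23 reads. In the sgKmt2c lines it was at 0, 0.671 and 0.145 RPKM, from 0, 4 and 1 reads. All 3 sgTrp53 lines lay above all 3 sgKmt2c lines. The mean was 4.43 ± 2.83 RPKM (SD, n = 3) against 0.272 ± 0.353 RPKM (SD, n = 3). This is a log2 fold change of -2.00 with a standard error of 0.452 (95% confidence interval -3.08 to -0.92, unadjusted p = 0.00347, adjusted p = 0.328, limma), so it did not pass the threshold over all genes. Left out in turn, the lines gave -2.35 to -1.61, with unadjusted p-values of 0.00269 to 0.0139 (limma). Twist1 entered the test only through the sgTrp53 lines, as did 92 of the 11617 genes, so its lower level in the sgKmt2c lines is in part fixed by that filter. With no filter on low values its adjusted p was 0.436 (limma). No other RefSeq gene overlaps it.

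Twist2, the paralog of Twist1, was the most abundant of the 7 factors in 4 of the 6 lines. Twist2 (ENSMUSG00000007805, chr1:91801461-91848028) was at 18, 28.3 and 38.3 RPKM in the sgTrp53 lines and at 0, 21.0 and 22.2 RPKM in the sgKmt2c lines. A single line stood apart, since no read fell on Twist2 in sgKmt2c replicate 1, which allows up to 0.479 RPKM, and the lowest sgTrp53 line was at least 37.6-fold above that limit. The other sgKmt2c lines were at least 43.9-fold and 46.3-fold above it. The log2 fold change was -1.81 (95% confidence interval -4.68 to 1.06, adjusted p = 0.703, limma), and without sgKmt2c replicate 1 it was -0.31 (95% confidence interval -1.11 to 0.49). The lncRNA Gm46117 overlaps Twist2.

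Prrx1, a homeobox factor of mesenchymal cells, had the widest range of the 10 genes. Prrx1 (ENSMUSG00000026586, chr1:163245119-163313710) was at 0.362, 62.5 and 2.79 RPKM in the sgTrp53 lines and at 0, 1.20 and 16.6 RPKM in the sgKmt2c lines. sgTrp53 replicate 2 was 173-fold above sgTrp53 replicate 1, and its residual SD stood at the 99.5th percentile of all genes tested. The log2 fold change of -1.03 (95% confidence interval -4.90 to 2.84, adjusted p = 0.848, limma) turned to 0.57 without sgTrp53 replicate 2 and shrank to -0.15 without sgKmt2c replicate 1. The lncRNAs LOC108167740 and Gm20471 overlap Prrx1.

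**Figure D2:**
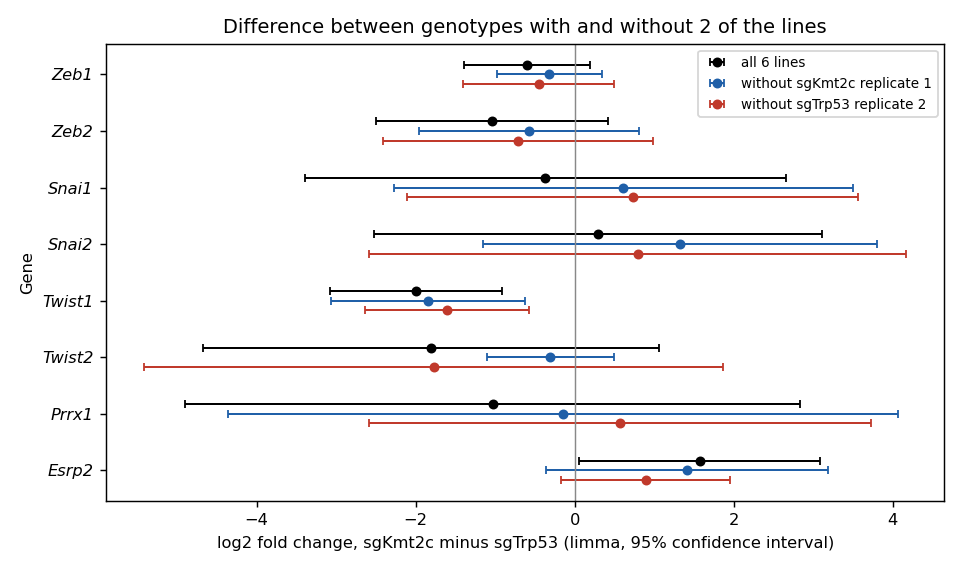
Log2 fold change of the 8 tested genes, sgKmt2c minus sgTrp53, as points with 95% confidence intervals from limma, for all 6 lines (black), without sgKmt2c replicate 1 (blue) and without sgTrp53 replicate 2 (red). The Twist1 intervals lie below 0 in all 3 cases, the Snai1 and Prrx1 points change sign without sgTrp53 replicate 2, and the Twist2 point moves from -1.81 to -0.31 without sgKmt2c replicate 1. Twist1 entered the test only through the sgTrp53 lines, so its direction is in part fixed by the filter on low values.

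Among the epithelial regulators, Esrp2 was the only gene with more than a few reads in every line. Esrp2 (ENSMUSG00000084128, chr8:106130319-106136974) was at 13.3, 1.81 and 8.33 RPKM in the sgTrp53 lines and at 25.7, 12.4 and 26.5 RPKM in the sgKmt2c lines. The sgKmt2c lines were higher on average, with an overlap of sgKmt2c replicate 2 and sgTrp53 replicate 1. The mean was 7.80 ± 5.75 RPKM (SD, n = 3) against 21.5 ± 7.97 RPKM (SD, n = 3), a log2 fold change of 1.57 with a standard error of 0.634 (95% confidence interval 0.06 to 3.09, unadjusted p = 0.0439, adjusted p = 0.576, limma). It was lowest in sgTrp53 replicate 2, the line highest in 5 of the 7 EMT factors, and without that line the log2 fold change was 0.89 (unadjusted p = 0.0839, limma). Without sgKmt2c replicate 1 it was 1.41 (unadjusted p = 0.0998, limma). Esrp2 overlaps the protein-coding gene Nfatc3 and the lncRNA 1810019D21Rik, so its level is uncertain.

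Esrp1, its paralog (ENSMUSG00000040728, chr4:11331933-11386783), was at 0.175, 0.10 and 1.40 RPKM in the sgTrp53 lines and at 1.64, 0 and 0.50 RPKM in the sgKmt2c lines, from 0 to 36 reads. Grhl2 (ENSMUSG00000022286, chr15:37233036-37363569) was at 0, 0.0942 and 0.509 RPKM in the sgTrp53 lines and at 0, 0 and 0.352 RPKM in the sgKmt2c lines, from at most 7 reads. Neither met the filter on low values, and the genotypes overlapped in both. Esrp1 was at 1 RPKM or more in a single line of each genotype. The lncRNA Gm16136 overlaps Grhl2.

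By mean RPKM in the sgTrp53 lines the order from high to low was Twist2, Prrx1, Snai1, Zeb1, Zeb2, Esrp2, Twist1, Snai2, Esrp1 and Grhl2. In the sgKmt2c lines it was Esrp2, Twist2, Snai1, Zeb1, Snai2, Prrx1, Zeb2, Esrp1, Twist1 and Grhl2. Esrp2 moved to the first place and Twist1 to the last but one. In both orders every pair of neighbours differed by less than the sum of their SDs, so the order of neighbours is not resolved.

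For each tested factor with a range of at least 2 on the log2(RPKM + 1) scale, the 3 genes with the most similar pattern over the 6 lines were looked up, by the mean absolute difference of centred log2 values. For Twist1 they were Fam132a (0.20), Ankrd34a (0.21) and Pak3 (0.23), for Zeb2 Plod2 (0.19), Ak5 (0.20) and Zfp532 (0.23), and for Esrp2 Ripk4 (0.19), Bhlhe40 (0.27) and Prrg4 (0.27). Plod2, for example, was at 18.7, 68.9 and 43.4 RPKM in the sgTrp53 lines and at 11, 40.9 and 23.5 RPKM in the sgKmt2c lines, low in both first replicates as Zeb2 was. For Twist2 the nearest were Gypc (0.28), Agpat4 (0.36) and Adarb1 (0.39), and for Snai2 Olfml2b (0.29), Nrn1 (0.34) and Arhgap31 (0.38). Differences were larger for Snai1, with Fabp4 (0.43), Rgcc (0.45) and Gnb4 (0.45), and largest for Prrx1, with Mrc2 (0.63), Colec12 (0.64) and Prg4 (0.73). The measure is not scaled to the range of a gene, so its size does not rank likeness of pattern alone. These are descriptions over 6 lines.

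The other EMT-associated factors held 12 genes, of which 9 were tested and 0 called, with 5 positive and 4 negative log2 fold changes and a median of 0.21, against -0.09 for all genes tested. Over the lines left out in turn the median ranged from -0.26 (without sgKmt2c replicate 2) to 0.29, and it was -0.12 without sgTrp53 replicate 1. Prrx2, the paralog of Prrx1, was at 1.53, 61.3 and 8.14 RPKM in the sgTrp53 lines and at 3.97, 60.6 and 28.9 RPKM in the sgKmt2c lines. It was highest in replicate 2 of each genotype, as was the forkhead gene Foxq1 at 28.8 and 33.9 RPKM. The forkhead gene Foxc1 was likewise highest in sgTrp53 replicate 2 (35.2 RPKM) and lowest in sgKmt2c replicate 1 (1.02 RPKM). Tcf3, which encodes the E-box factor E2A, and Sox4 were high in every line, at 37.5 to 79.6 RPKM and 41.1 to 88 RPKM. Gsc and Six2 had no read in any line.

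Of 11 epithelial transcription factors 6 were tested and 0 called, with 3 log2 fold changes in each direction and a median of -0.04. Over the lines left out in turn the median ranged from -0.31 to 0.83, the latter without sgKmt2c replicate 2, so the list had no stable direction. Klf4, a zinc finger factor, was at 80.4, 43.1 and 35.1 RPKM in the sgTrp53 lines and at 48.4, 155 and 238 RPKM in the sgKmt2c lines (adjusted p = 0.611, limma). The forkhead factor Foxa1 was at 18.1 to 52.5 RPKM in 5 lines and at 0.133 RPKM in sgKmt2c replicate 1. The ETS factor Ehf was at 5.98 RPKM in sgTrp53 replicate 1 and at most 2.14 RPKM in the other lines.

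The partners that act with or on the SNAIL and ZEB proteins were expressed in every line. All 6 corepressor genes were tested and 0 called, with 2 positive and 4 negative log2 fold changes and a median of -0.10 (-0.32 to 0.02 over the lines left out). The histone deacetylase gene Hdac1 was at 55.9, 89.1 and 59.0 RPKM in the sgTrp53 lines and at 25.8, 48.6 and 52.2 RPKM in the sgKmt2c lines, without overlap (adjusted p = 0.608, limma). Kdm1a, which encodes the histone demethylase LSD1, was at 58.5 to 63.2 RPKM against 35.3 to 63.9 RPKM. All 5 genes for the turnover of SNAIL protein were tested and 0 called, with a median log2 fold change of 0.00 (-0.17 to 0.11 over the lines left out), among them the kinase gene Gsk3b at 23.3 to 32.3 RPKM. The median residual SD was 0.306 for the corepressors and 0.310 for the turnover genes, below the 0.368 of all genes, so these partners varied far less between lines than the factors themselves.

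The epithelial and mesenchymal genes that these factors are known to act on differed mainly between single lines. Of the 28 epithelial genes 19 were tested and 0 called at an adjusted p under 0.05, and 1, Cdh3, passed at an unadjusted p under 0.05. They had 14 positive and 5 negative log2 fold changes with a median of 0.51. sgKmt2c replicate 1 was the highest line in 17 of the 19, and without it 4 were positive and 15 negative, with a median of -0.62. Without sgTrp53 replicate 2 the median was -0.07, and without sgKmt2c replicate 2 it was 1.60. The keratin gene Krt8 was at 431, 9.27 and 265 RPKM in the sgTrp53 lines and at 1662, 140 and 327 RPKM in the sgKmt2c lines, and its partner Krt18 was likewise lowest in sgTrp53 replicate 2 (14.2 RPKM) and highest in sgKmt2c replicate 1 (2065 RPKM). Cdh1, added to the named genes after its values were seen as the best known target of these repressors, was at 2.81, 0.849 and 9.86 RPKM in the sgTrp53 lines and at 191, 0.306 and 4.86 RPKM in the sgKmt2c lines. Epcam was at 27 RPKM in sgKmt2c replicate 1 and at most 6.88 RPKM elsewhere. Crb3 and Lsr, whose promoters are printed above, were at 27.2 and 87.2 RPKM in sgKmt2c replicate 1 and had no read in sgKmt2c replicate 2.

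Cdh3, which encodes P-cadherin, was lower in the sgKmt2c lines. It was at 3.51, 15.7 and 7.45 RPKM in the sgTrp53 lines and at 0, 0.0683 and 0.177 RPKM in the sgKmt2c lines, without overlap (log2 fold change -2.99, adjusted p = 0.145, limma). As with Twist1, it entered the test only through the sgTrp53 lines. Of the 19 tested epithelial genes 1 was lower and 0 higher without overlap, against 10.4% and 5.72% of all genes tested. Cgn, Cldn3, Dsp and Marveld3 also had negative log2 fold changes, with overlap. Cldn7 and Spint1, not tested, were lower without overlap. Cldn7 was at 1.44, 0.412 and 2.07 RPKM against no read. Spint1 was at 0.649, 3.56 and 2.43 RPKM against 0.0934, 0.239 and 0.618 RPKM.

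Of the 20 mesenchymal genes 19 were tested and 0 called, and 3 passed at an unadjusted p under 0.05, all lower in the sgKmt2c lines, against 5.34% of all genes tested in that direction. They had 4 positive and 15 negative log2 fold changes with a median of -0.997, and without sgKmt2c replicate 1 6 were positive and 13 negative with a median of -0.22. Fbn1, which encodes the microfibril protein fibrillin, was at 2.15, 73.5 and 15.5 RPKM in the sgTrp53 lines and at 0, 0.716 and 1.71 RPKM in the sgKmt2c lines (adjusted p = 0.504, limma). Tagln, a smooth muscle gene, was at 9.20, 8.30 and 77.6 RPKM against 0.401, 2.91 and 5.75 RPKM (adjusted p = 0.554, limma). Loxl2, a lysyl oxidase gene, was at 2.31, 4.56 and 12.0 RPKM against 0.519, 0.102 and 0.0440 RPKM (adjusted p = 0.322, limma) and entered the test only through the sgTrp53 lines. In these 3 genes the genotypes did not overlap, where 10.4% of all genes tested were lower without overlap. Tnc, the matrix gene for tenascin, was at 0.0311 RPKM in sgKmt2c replicate 1 and at 3.10 to 116 RPKM in the other lines. Vim, which encodes the intermediate filament vimentin, was high in every line, at 2755, 2772 and 4023 RPKM in the sgTrp53 lines and at 3862, 4806 and 2116 RPKM in the sgKmt2c lines, including the line with no read on Snai2, Twist1, Twist2 and Prrx1.

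**Figure D3:**
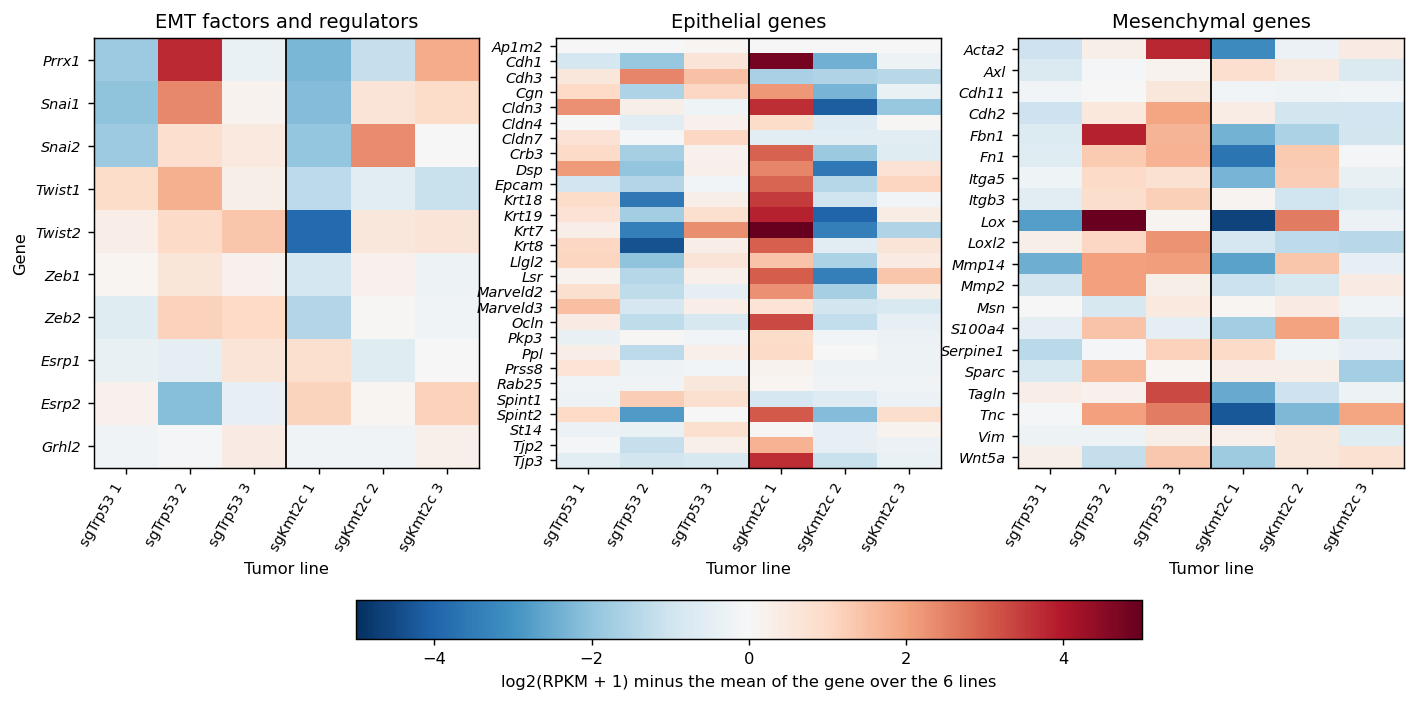
Level of each gene in each line (columns, with the sgTrp53 lines left of the black line and the sgKmt2c lines right of it) as log2(RPKM + 1) minus the mean of the gene over the 6 lines, red for above and blue for below that mean (the darkest colors also stand for larger differences), for the 10 genes, the 28 epithelial genes and the 20 mesenchymal genes. The column of sgKmt2c replicate 1 is blue for all 7 EMT factors and red for most epithelial genes, of which it was the highest line in 17 of 19 tested.

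**Figure D4:**
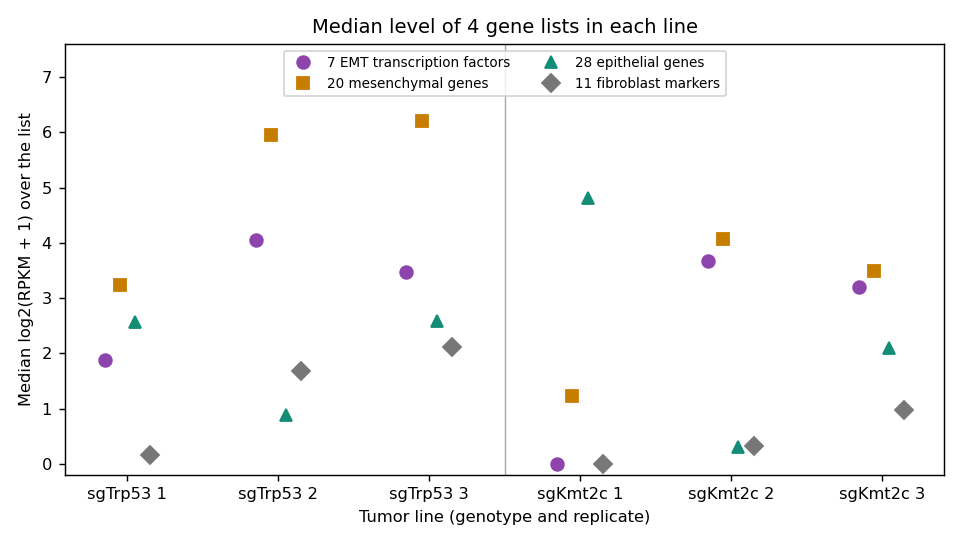
Median log2(RPKM + 1) over each gene list (y axis) in each of the 6 lines (x axis), for the 7 EMT transcription factors, the 20 mesenchymal genes, the 28 epithelial genes and the 11 fibroblast markers. The EMT factors have a median of 0 in sgKmt2c replicate 1 and of 4.04 in sgTrp53 replicate 2, where the epithelial genes stand at 4.81 and 0.87.

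The plot of list medians shows the lines side by side. The median log2(RPKM + 1) of the 7 factors was 1.87, 4.04 and 3.47 in the sgTrp53 lines and 0, 3.67 and 3.19 in the sgKmt2c lines. For the 28 epithelial genes it was 2.57, 0.87 and 2.59 against 4.81, 0.30 and 2.09. The lines with the highest factor medians, sgTrp53 replicate 2 and sgKmt2c replicate 2, thus had the lowest epithelial medians, and sgKmt2c replicate 1 had the lowest factor median and the highest epithelial one. The genotypes overlapped in both lists. The comparison runs over 6 lines and is given as a description.

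Markers of other cells moved with the factors in part. Of 11 fibroblast markers 5 were tested and 0 called, all 5 with negative log2 fold changes (median -0.95). The median was 0.22 without sgKmt2c replicate 1 and 0.0068 without sgTrp53 replicate 2, with 3 of the 5 positive in both cases, and -2.61 without sgTrp53 replicate 1. Their summed level was 15.2, 1095 and 172 RPKM in the sgTrp53 lines and 0.282, 151 and 112 RPKM in the sgKmt2c lines, highest and lowest in the same lines as the summed level of the factors. The collagen gene Col3a1 made up 814 RPKM of the sum in sgTrp53 replicate 2, and the fibroblast receptor gene Pdgfrb was at 0.970, 32.7 and 18.1 RPKM against 0, 23.4 and 10.4 RPKM. The fibroblast marker Lum was at 0 in 5 lines and at 0.079 RPKM in the sixth, Pdgfra was at most 0.86 RPKM and Thy1 at most 2.51 RPKM. Other markers were higher in some sgTrp53 lines. Dcn, not tested, was at 7.39, 0.897 and 8.16 RPKM in the sgTrp53 lines and at 0, 0 and 0.248 RPKM in the sgKmt2c lines. Postn, also not tested, was at 107 RPKM in sgTrp53 replicate 2 and at most 3.35 RPKM elsewhere. Col1a2 was at 114 and 75.3 RPKM in sgTrp53 replicates 2 and 3 and at most 8.94 RPKM elsewhere. Several of these genes are also expressed by mesenchymal tumor cells, and the part of fibroblasts in the levels of the factors was not tested.

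Stellate cell markers summed to at most 2.98 RPKM, with Lrat and Gfap at 0 in every line, and endothelial markers to at most 0.312 RPKM, with Emcn at 0 in every line. None of either list was tested. Of 8 immune markers 4 were tested and 0 called. The summed level of all 8 was 60.8, 34.2 and 74.5 RPKM in the sgTrp53 lines and 76.6, 36.2 and 49.9 RPKM in the sgKmt2c lines. Cd14 alone made up 11.4, 11.6 and 13.6 RPKM of these sums in the sgTrp53 lines and 70.3, 30.7 and 34.5 RPKM in the sgKmt2c lines. Ptprc, the gene for the pan-leukocyte antigen CD45, was at most 0.0655 RPKM. Tyrobp and Adgre1, not tested, were lower in the sgKmt2c lines without overlap. Tyrobp was at 2.33, 0.667 and 2.32 RPKM against no read, and Adgre1 was at most 0.492 RPKM. The genotypes overlapped in Cd68, Itgam and Ptprc. The macrophage genes Lyz2 and Csf1r were lower in the sgKmt2c lines without overlap, as Twist1 was (adjusted p = 0.427 and 0.440, limma), and Csf1r, like Twist1, entered the test only through the sgTrp53 lines, while Cd14 was higher without overlap (adjusted p = 0.236, limma). Their part in the Twist1 levels was not tested.

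Of 10 hepatocyte markers 5 were tested and 0 called, with 5 positive log2 fold changes and a median of 0.60, and without sgKmt2c replicate 1 with 2 positive and 3 negative and a median of -0.00079. Without sgKmt2c replicate 2 the median was 2.15. The apolipoprotein gene Apob was at 4385 RPKM in sgKmt2c replicate 1 and at 0.243 to 129 RPKM in the others. The hepatocyte factor Hnf4a was also highest in that line, the one with the lowest EMT factors. All 7 cholangiocyte markers were tested and 0 called, with a median of 0.14 (-0.92 without sgKmt2c replicate 1, -1.06 without sgTrp53 replicate 2), and their summed level was 1030, 111 and 1122 RPKM in the sgTrp53 lines and 3522, 116 and 473 RPKM in the sgKmt2c lines. It was lowest in the replicate 2 lines, in which Prrx2 and Foxq1 were highest within each genotype. Whether these markers bear on the levels of the 10 genes was not tested.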

How the data were processed

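RNA of 6 mouse liver tumor lines (3 sgTrp53, 3 sgKmt2c) was sequenced from TruSeq libraries. Groups and replicate numbers follow the labels. The authors trimmed reads with Trimmomatic, aligned to GRCm38 (mm10) with STAR and counted with HTSeq, and the authors deposited RPKM values that divide by 1 transcript length per gene, so changes of isoform cannot be seen. The use of strand is not given in the sources used here. Of 21065 rows, 209 carry no values, and 6 further sample columns were not used. A further deposited table, of the authors' DESeq2 comparison (mean normalized counts as a signal, log2 fold changes with errors, test statistics as a score, and p-values) was not used. Values came in whole steps (100% within 0.1 of a read), which gave reads per gene, and 1 read at 2 kb was worth 0.0726 to 0.136 RPKM.

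Genotypes were compared in limma 3.58.1 (R 4.3.3; lmFit and eBayes with trend) on log2(RPKM + 1), which understates changes of low genes, over genes with at least 1 RPKM in at least 3 libraries, with no term but genotype and with p-values adjusted by Benjamini-Hochberg. It was checked on simulated data. Exact permutation tests (scipy 1.17.1) are two-sided. The 10 genes and all lists were chosen with earlier results of these data known. Named from each list were genes past the threshold, up to 4 tested genes with the largest log2 fold changes and the 2 with the highest mean RPKM, as far as the text uses them; Cdh1, Crb3, Lsr and single markers outside this rule were chosen after their values were seen. Alternatives were other pseudocounts, filters, scalings and moderation, limma voom on the recovered reads, a replicate block, each line left out, and sgKmt2c replicates 2 and 3 as 1 sample. Zeb1, Snai2, Esrp1, Esrp2 and Grhl2 were not among the promoter windows used here.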

Additional observations from a re-analysis of the deposited data

How the results depend on the processing

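The number of the 10 genes called stayed 0 under all alternatives, while 1 to 3 of the tested genes passed an unadjusted p under 0.05. Over all genes, 6 were called higher and 9 lower (limma), against 14 and 19 at an adjusted p under 0.1. The number called lower was 2 with a pseudocount of 0.1, 2 with the stricter filter (at least 1 RPKM in all 6 libraries), 0 with no filter and 0 with limma voom, where 965, 819, 1405 and 955 genes had an unadjusted p under 0.05. Leaving out 1 line at a time gave 0 to 5 genes called higher and 0 to 3 lower (563 to 1477 at an unadjusted p under 0.05), with 3 lower without sgKmt2c replicate 1. It gave 1 to 4 of the 10 genes without overlap, 4 without sgTrp53 replicate 1 and 3 without sgKmt2c replicate 2. Counting sgKmt2c replicates 2 and 3 as 1 sample gave 0 and 0 called (1031 at an unadjusted p under 0.05) and 3 of the 10 without overlap, since fewer lines overlap less often.

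Snai2 turned to -0.22 with limma voom and to -0.0049 with sgKmt2c replicates 2 and 3 as 1 sample, and ranged from -0.81 to 1.32 over the lines left out. Snai1 ranged from -1.48 to 0.73 and Prrx1 from -2.22 to 0.57 over the lines left out. The cause was not tested. The median of the epithelial regulators, 1.57 from Esrp2 alone, was 0.12 with no filter, which adds Esrp1 and Grhl2, and 0.89 to 2.07 over the lines left out. The median of the epithelial genes changed sign, from 0.51 to -0.62 without sgKmt2c replicate 1 and to -0.07 without sgTrp53 replicate 2, moves smaller than the spread between lines. Counting these, 238 values under the alternatives stayed on their side of the threshold with their direction kept (tests), within the spread between lines (medians) or within 1.5 times (counts).

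Same-numbered lines of the genotypes correlated by 0.192, 0.399 and 0.0316 in their deviations from the genotype means. sgTrp53 replicates 1 and 2 correlated best with the same number, and sgTrp53 replicate 3 with sgKmt2c replicate 1 (0.152). Whether the numbers pair the lines cannot be decided from 3 such values. With a replicate block, 0 genes were called higher and 0 lower (1085 at an unadjusted p under 0.05), and 0 of the 10 genes. Unadjusted p-values with the block were 0.00203 for Twist1, 0.00501 for Esrp2 and 0.0113 for Zeb2 (adjusted p = 0.248, 0.329 and 0.381, limma). The value for Twist1 is in part fixed by the filter on low values, which it passed only through the sgTrp53 lines. Grhl2, and in several lines Esrp1, Twist1 and Snai2, rest on few reads.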
